A study of Mus musculus with 8 samples.

Results

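SOX genes encode transcription factors that were followed here in SN4741 cells grown at 37 °C or shifted to 39 °C. The 9 members, Sox2, Sox4, Sox5, Sox6, Sox8, Sox9, Sox10, Sox11 and Sox12, were taken by their symbols from the 31053 genes of the deposited single-cell tables. A further 10 SOX genes in those tables were used for comparison. SN4741 is a mouse cell line made from the embryonic substantia nigra of a transgenic animal, in which a tyrosine hydroxylase promoter drives a temperature-sensitive SV40 T antigen. It is reported to be clonal, the study describes its karyotype as unstable and polyploid, and the labels call the cells wild-type neural precursors. There were 4 libraries of cells kept at 37 °C in medium with 10% serum. The study calls this temperature permissive and describes the activity of the T antigen as diminished at 39 °C. The other 4 libraries came from cells moved 24 h after passage to 39 °C and 0.5% serum for 48 h, so that temperature and serum cannot be told apart in any comparison below. The labels do not say whether the libraries of one temperature came from separate cultures, and p-values then measure only the spread between libraries, which may be technical.

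All SOX proteins bind DNA through a high mobility group domain that bends the double helix, and they usually act with partner factors. They fall into groups by sequence, and each group has its own tasks in the nervous system. SOXB1 proteins such as SOX2 keep neural stem cells in the progenitor state. SOXC proteins (SOX4, SOX11 and SOX12) act in dividing progenitors and in young neurons, and SOXD proteins (SOX5 and SOX6) lack an activation domain of their own and modulate other SOX factors. SOXE proteins (SOX8, SOX9 and SOX10) are known for roles in glia, neural crest and, for SOX9 with SOX5 and SOX6, cartilage.

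Droplet 3′ RNA-seq with molecular identifiers (UMIs) gave 19125 cells with 228647754 UMIs. After removal of cells above 15% mitochondrial UMIs, below 200 genes or above 6000 genes, 8550 cells at 37 °C and 9801 at 39 °C were left, with 17166686 to 29633818 UMIs per library. The median cell had between 6676 and 16665 UMIs, and no pair of libraries shared more than 5 cell barcodes. Replicate 1 at 39 °C held the fewest cells (985) and the most UMIs per cell. Of 10 neural precursor markers, 9 had a UMI but only 4 reached 10 CPM (counts scaled to a common library total) at 37 °C, with Hes5 at 0. Their summed level was 5652 to 6024 CPM at 37 °C and 5202 to 5814 CPM at 39 °C, most of it from Vim (means of 5337 and 5225 CPM), the vimentin gene, which fibroblasts also express. All 10 fibroblast markers had UMIs, and 7 of them reached 10 CPM at 37 °C and 6 at 39 °C. Their summed level was 2052 to 2136 CPM at 37 °C and 1131 to 1161 CPM at 39 °C. The label of neural precursors was thus matched in part only. Cells in G1 made up 20.6 to 28.7% per library at 37 °C and 82.5 to 85.4% at 39 °C when all libraries were scored together, and 38.1 to 42.5% and 54.1 to 58.8% when each library was scored by itself.

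Sox2, Sox4, Sox11 and Sox12 each consist of a single exon, whereas the SOXD genes are long. On GRCm38 with the GENCODE annotation, Sox2 lies on chromosome 3 (34650405 to 34652461, plus strand), Sox4 on chromosome 13 (28948919 to 28953713, minus strand), Sox11 on chromosome 12 (27334264 to 27342574, minus strand) and Sox12 on chromosome 2 (152393611 to 152398063, minus strand). Sox9 lies on chromosome 11 (112782224 to 112787760, plus strand) with 3 exons. Sox5 (chromosome 6, 143828425 to 144781977, minus strand) and Sox6 (chromosome 7, 115470872 to 116038796, minus strand) span 954 and 568 kb, with 15 and 16 exons in the longest transcript. Sox8 (chromosome 17, 25565892 to 25570686, minus strand) and Sox10 (chromosome 15, 79154908 to 79165240, minus strand) have 3 and 5 exons.

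The promoters of the SOXB1 gene and the 3 SOXC genes are shown because, among these single-exon genes, Sox2 and Sox4 were higher and Sox11 was lower at 39 °C. Each is the 250 bases before the RefSeq start of transcription, 5′ to 3′ on the strand of the gene, with capitals for CCAAT and GGGCGG on either strand. RefSeq places the starts of Sox2 and Sox11 upstream of the GENCODE starts. It places those of Sox4 and Sox12 slightly downstream, so the Sox4 and Sox12 windows reach into the genes as GENCODE draws them. The windows on GRCm38.p6 are chr3:34649745-34649994 for Sox2 (plus strand), chr13:28953700-28953949 for Sox4, chr12:27342719-27342968 for Sox11 and chr2:152398047-152398296 for Sox12 (all 3 minus strand).
Sox2: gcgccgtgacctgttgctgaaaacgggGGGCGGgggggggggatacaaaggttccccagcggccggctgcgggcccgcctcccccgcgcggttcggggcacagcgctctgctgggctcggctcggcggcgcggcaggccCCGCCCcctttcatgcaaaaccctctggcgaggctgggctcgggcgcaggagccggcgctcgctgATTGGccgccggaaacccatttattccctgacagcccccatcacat
Sox4: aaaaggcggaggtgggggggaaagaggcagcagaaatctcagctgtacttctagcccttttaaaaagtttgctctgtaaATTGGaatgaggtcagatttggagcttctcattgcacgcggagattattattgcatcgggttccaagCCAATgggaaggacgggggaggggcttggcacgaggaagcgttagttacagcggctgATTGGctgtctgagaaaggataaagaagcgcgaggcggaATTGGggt
Sox11: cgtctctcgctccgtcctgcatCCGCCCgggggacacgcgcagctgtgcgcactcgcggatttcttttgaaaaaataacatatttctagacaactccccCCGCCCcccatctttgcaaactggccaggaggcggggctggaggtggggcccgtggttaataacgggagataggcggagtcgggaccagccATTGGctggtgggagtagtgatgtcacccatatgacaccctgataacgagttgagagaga
Sox12: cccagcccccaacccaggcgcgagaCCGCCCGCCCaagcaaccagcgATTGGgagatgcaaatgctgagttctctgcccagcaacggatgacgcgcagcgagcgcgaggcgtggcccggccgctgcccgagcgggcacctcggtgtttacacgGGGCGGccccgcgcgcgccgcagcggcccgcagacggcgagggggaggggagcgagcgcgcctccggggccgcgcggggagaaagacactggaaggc

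The windows differed in base composition and in these short boxes. The Sox4 window held 4 matches to CCAAT, the others 1 each, and 33.8% of the 32851 RefSeq promoters hold at least 1. GGGCGG, the core of the GC box, was matched 3 times for Sox12, 2 times each for Sox2 and Sox11 and 0 times for Sox4, beside 32.7% of all promoters with a match; 2 of the 3 matches in Sox12 overlap each other. GC content was 72% for Sox2, 74.4% for Sox12, 58% for Sox11 and 50.8% for Sox4, where the median promoter has 52.4%. None of the 4 windows held TATAAA (12.4% of promoters) or the SOX motifs AACAAAG (5.03%) and AACAATG (3.29%), again on either strand. RefSeq promoters were matched for 7 of the 9 members, and those of Sox9 and Sox10 were not used here.

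Temperature was compared first in sums of counts per library, taken over all cells that passed the filters (edgeR quasi-likelihood test, Benjamini-Hochberg adjustment over 15810 genes). Sox4, Sox9, Sox5 and Sox2 were higher at 39 °C, Sox11 was lower, and Sox6 and Sox12 did not pass an adjusted p of 0.05. Thus 5 of the 7 members tested passed, beside 62% of all genes (31.5% higher and 30.5% lower), so that the share of members that passed is near that of genes at large. No member met the stricter size limit (a log2 change beyond 1.5 either way with an adjusted p below 0.01), which 5.83% of genes met, although Sox5 met it when cells were kept only up to 10% mitochondrial UMIs (log2 fold change 1.51, edgeR adjusted p = 6.27e-05). Sox8 and Sox10 were too low to test. Values below are CPM after TMM scaling, with the SD over 4 libraries; they are not divided by transcript length, so levels are compared between temperatures and not between genes.

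Sox2, the SOXB1 member that maintains neural stem cells, was measured at 54.6, 52.9, 55.8 and 58.2 CPM in the 4 libraries at 37 °C and at 78.6, 77.2, 78.6 and 71.8 CPM at 39 °C. The temperatures did not overlap, and the mean rose from 55.4 ± 2.23 to 76.5 ± 3.25 CPM (SD, n = 4 each). This is a 1.38-fold difference, a log2 fold change of 0.47 ± 0.047 (SE, adjusted p = 5.33e-08 by edgeR).

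Sox4, the SOXC gene of progenitors and young neurons, was at 246, 221, 212 and 230.3 CPM in the libraries at 37 °C and 644, 594, 589 and 611 CPM at 39 °C, with no overlap. The mean went from 227 ± 14.8 to 609.6 ± 25.0 CPM (SD, n = 4 each), 2.68-fold higher (log2 fold change 1.42 ± 0.055 SE, edgeR adjusted p = 5.00e-14). A noncoding gene on the opposite strand, Gm26735, overlaps Sox4; it had 691 UMIs at 37 °C and 1355 at 39 °C, beside 25473 and 59536 for Sox4. Whether the counting used strand is not given in the sources used here, so reads of the shared stretch could in principle be split between them. Sox2 lies within Sox2ot on the same strand, and Gm44068 and Sox5it lie within Sox5 on its strand. These were not analysed here, so how reads of Sox2 and Sox5 were assigned is uncertain whether or not strand was used.

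Sox11, which acts redundantly with Sox4 in many tissues, moved the other way. It stood at 36.9, 30.0, 35.8 and 38.1 CPM at 37 °C and at 18.8, 24.0, 21.8 and 25.6 CPM at 39 °C, again without overlap. The mean dropped from 35.2 ± 3.56 to 22.6 ± 2.96 CPM (SD, n = 4 each), 1.55-fold lower at 39 °C (log2 fold change -0.63 ± 0.081 SE, edgeR adjusted p = 1.13e-06). Sox12, the weakest activator of the SOXC group, was at 7.82 ± 0.724 and 6.84 ± 0.454 CPM (SD, n = 4 each) with overlapping libraries, a log2 difference of -0.19 ± 0.086 (edgeR, SE; adjusted p = 0.0668).

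The SOXD genes were measured from far fewer molecules. Sox5 had 48 UMIs at 37 °C and 101 at 39 °C in all. Its level was 0.583, 0.310, 0.561 and 0.246 CPM at 37 °C and 1.08, 1.14, 1.13 and 0.771 CPM at 39 °C, which did not overlap (log2 fold change 1.25 ± 0.272 SE, edgeR adjusted p = 5.00e-04). Sox6 was at 5.76, 6.39, 6.52 and 6.53 CPM at 37 °C and at 6.52, 4.05, 5.38 and 5.67 CPM at 39 °C. These ranges overlapped, and the log2 fold change of -0.24 ± 0.112 (SE) had an edgeR adjusted p of 0.0694. For Sox6 and Sox12 a difference is thus not shown, and the call turned with the settings: across the alternatives below the adjusted p of Sox6 lay between 0.0111 and 0.970 and that of Sox12 between 0.00291 and 0.557. Antisense genes annotated within Sox6 had few UMIs (Sox6os 10 at 37 °C and 9 at 39 °C, Gm45025 0), and the 5 annotated within Sox5 (Sox5os1 to Sox5os5) had 0.

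Sox9 was the one SOXE gene with enough counts to test. It was at 8.54, 6.82, 7.82 and 6.99 CPM at 37 °C and at 17.6, 20.4, 18.8 and 17.0 CPM at 39 °C, with no overlap between temperatures. The mean rose from 7.54 ± 0.794 to 18.5 ± 1.48 CPM (SD, n = 4 each), 2.45-fold (log2 fold change 1.29 ± 0.079 SE, edgeR adjusted p = 3.59e-11). Sox8 had 1 UMI, in replicate 1 at 37 °C, and Sox10, the crest and oligodendrocyte factor, had 0 UMIs in 18351 cells. A count of 0 allows up to 0.0142 CPM over the 8 libraries, or a UMI in up to 0.0163% of cells, from counting error only. In all, 5 of 7 members had temperatures that did not overlap, where 56.7% of all genes tested did not.

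**Figure D1:**
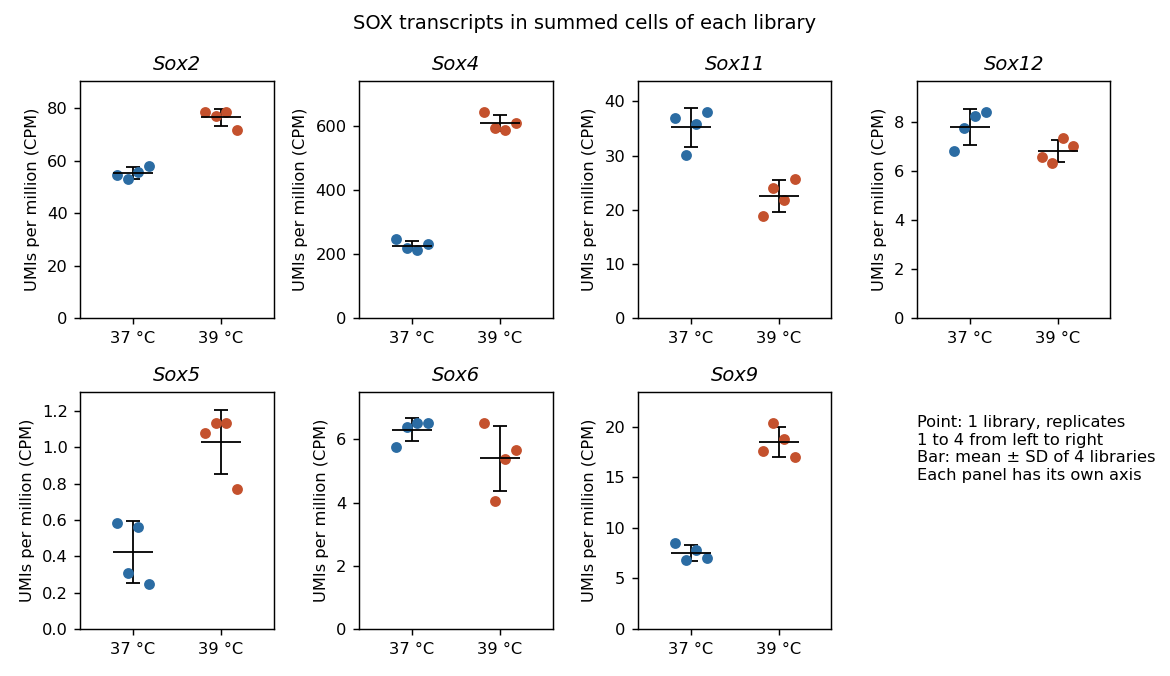
Level of each tested SOX gene in CPM (y axis from 0, a separate scale per panel) in the 4 libraries at 37 °C (blue) and the 4 at 39 °C (orange). Points are libraries and bars the mean ± SD; the temperatures separate for Sox2, Sox4, Sox5, Sox9 and Sox11 and overlap for Sox6 and Sox12.

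Because most cells at 39 °C were assigned to G1, the comparison was repeated in G1 cells alone (edgeR, 14712 genes, of which 47.1% passed, 24.8% higher and 22.4% lower). Sox2, Sox4 and Sox9 were higher at 39 °C in G1 cells as well, no member was lower, and 4 of 7 did not pass; 2.54% of genes and 0 members were past the size limit. Sox4 was at 310, 294, 306 and 300 CPM in G1 cells at 37 °C and at 685, 626, 627 and 647 CPM at 39 °C, a 2.14-fold difference (log2 fold change 1.09 ± 0.053 SE, adjusted p = 1.89e-13). Sox2 rose from 51.3 ± 2.72 to 75.1 ± 2.46 CPM (SD, n = 4 each), with a log2 difference of 0.55 ± 0.056 (edgeR, SE; adjusted p = 2.84e-08).

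Sox5, Sox9 and Sox11, like Sox4, had log2 fold changes closer to 0 in G1 cells than in all cells, a difference that was not tested. Sox5, with means of 0.826 ± 0.389 and 1.04 ± 0.192 CPM in G1 (SD, n = 4 each), had a log2 fold change of 0.32 ± 0.360 there (SE, edgeR adjusted p = 0.494) beside 1.25 in all cells, with overlapping libraries. In G1 cells Sox9 was at 13.7, 11.2, 18.8 and 13.3 CPM at 37 °C and at 19.6, 22.7, 20.7 and 19.3 CPM at 39 °C, a log2 difference of 0.53 ± 0.108 (edgeR, SE; adjusted p = 2.59e-04) where that in all cells was 1.29. Its temperatures still did not overlap, as for Sox2 and Sox4; over all genes 44% did not overlap in G1 cells. Sox11 in G1 cells was at 22.1, 14.5, 20.5 and 27.1 CPM at 37 °C and at 19.1, 22.7, 21.5 and 25.7 CPM at 39 °C, so that its libraries overlapped fully. Its log2 fold change there was 0.08 ± 0.118 (SE, edgeR adjusted p = 0.589).

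The same fit was made after the data were seen in cells assigned to S (43.5% of 13740 genes passed) and in cells assigned to G2M (29.7% of 13802 genes). Sox11 was lower at 39 °C in both, by a log2 difference of -0.69 ± 0.113 (edgeR, SE; adjusted p = 9.30e-06) in S cells and -0.51 ± 0.151 (SE, edgeR adjusted p = 0.00929) in G2M cells. Sox2 and Sox4 were higher in both sets, with log2 fold changes of 0.81 and 0.60 for Sox2 and 0.97 and 1.30 for Sox4. Sox9 passed in S cells (log2 fold change 0.67 ± 0.188 SE, edgeR adjusted p = 0.00458) but not in G2M cells (0.32 ± 0.281 SE, edgeR adjusted p = 0.424); the difference between S and G2M cells was not tested. Sox5 passed in S cells (edgeR adjusted p = 0.0133), from 16 UMIs at 37 °C and 14 at 39 °C and with overlapping libraries. G2M cells at 39 °C were few, 29 to 187 per library, and S cells there numbered 115 to 423.

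**Figure D2:**
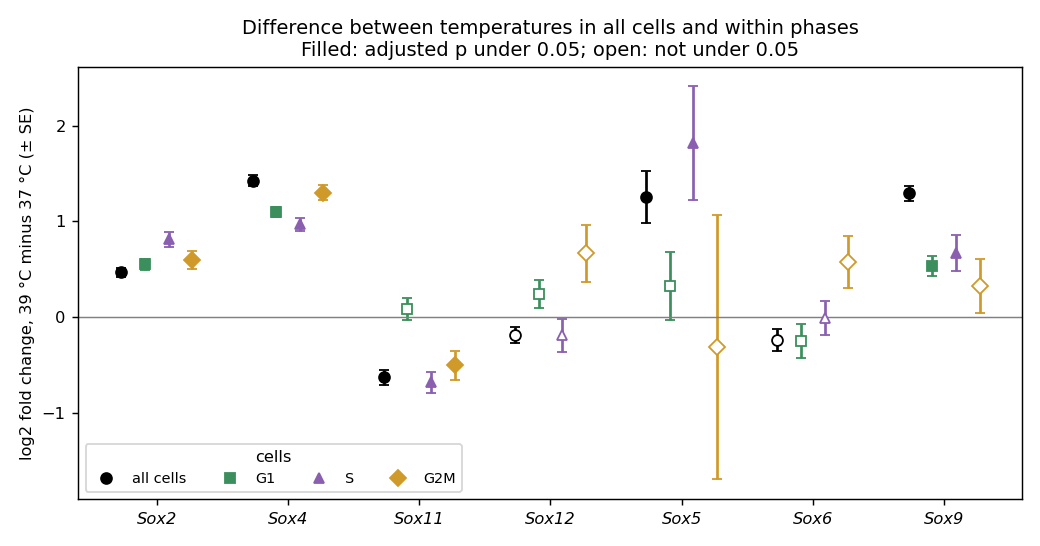
Log2 fold change (39 °C minus 37 °C, ± SE, y axis) of 7 SOX genes in all cells, G1, S and G2M cells; filled symbols have an adjusted p under 0.05. Sox2 and Sox4 are above 0 in each set of cells, whereas Sox11 is below 0 in all cells, S and G2M and near 0 (0.08) in G1.

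Phases were then compared within each temperature, with 24 sums of counts by library and phase and the library as a block (14172 genes, edgeR). CPM are scaled here across the 24 sums and so differ slightly from those above. None of the 9 SOX genes is among the genes used to assign phases. At 37 °C, S against G1, 4 of 7 members passed beside 45% of genes (21.2% higher and 23.8% lower), Sox11 and Sox12 higher in S and Sox4 and Sox9 lower. G2M against G1 at 37 °C, 5 of 7 passed beside 43.5% of genes (20.8% higher and 22.7% lower), Sox2 and Sox11 higher in G2M and Sox4, Sox5 and Sox9 lower. At 39 °C, 6 of 7 passed for S beside 37.3% of genes, 18% higher and 19.3% lower (Sox2, Sox6, Sox11 and Sox12 higher, Sox4 and Sox9 lower), and 4 of 7 for G2M beside 26.5% of genes, 12.5% higher and 14% lower (Sox2 and Sox6 higher, Sox4 and Sox9 lower). Phases depend on how cells are scored: with each library scored by itself, G2M against G1 at 39 °C left Sox2 alone past the threshold, with Sox4 at a log2 fold change of 0.0069.

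Sox11 depended on phase more strongly at 37 °C than at 39 °C. At 37 °C its level in G1 was 22.5, 14.8, 20.9 and 27.6 CPM in the 4 libraries and in S 45.5, 37.6, 46.3 and 43.7 CPM. Every library at 37 °C thus had more Sox11 in S than any had in G1 (log2 fold change 1.01 ± 0.078 SE, edgeR adjusted p = 3.63e-19), and G2M was also higher (0.75 ± 0.081 SE, edgeR adjusted p = 9.59e-13). At 39 °C the G1 level was 22.1 ± 2.82 CPM and the S level 26.5 ± 6.63 CPM (SD, n = 4 each), a log2 difference of 0.27 ± 0.104 (edgeR, SE; adjusted p = 0.0363), which was lost without replicate 2 at 39 °C (adjusted p = 0.658). The S contrast was smaller at 39 °C than at 37 °C by -0.75 ± 0.128 on the log2 scale (SE, edgeR interaction, adjusted p = 9.67e-06), and the G2M contrast by -0.59 ± 0.167 (adjusted p = 0.0171). The latter was lost without replicate 2 at 37 °C (adjusted p = 0.0510) or without replicate 4 at 39 °C (adjusted p = 0.0876).

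Sox12 had its highest mean in S at both temperatures. At 37 °C it was at 5.56 ± 0.850 CPM in G1, 12.3 ± 0.942 in S and 4.77 ± 0.668 in G2M (SD, n = 4 each). The S against G1 log2 fold change was 1.14 ± 0.147 (SE, edgeR adjusted p = 4.08e-10) at 37 °C and 0.76 ± 0.173 (SE, edgeR adjusted p = 2.04e-04) at 39 °C, and the difference between these did not pass (edgeR adjusted p = 0.345).

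Sox4 and Sox9 had their highest means in G1 at both temperatures with all libraries scored together. At 37 °C the mean of Sox4 was 309 ± 6.61 CPM in G1, 223 ± 18.5 in S and 196 ± 15.5 in G2M (SD, n = 4 each), and at 39 °C it was 642 ± 25.9, 438 ± 31.0 and 482 ± 22.1 CPM. The S cells at 39 °C, where Sox4 had the lowest mean of that temperature, were above the G1 cells of 37 °C in every library (399 CPM or more, beside 316 CPM or less). Sox9 was at 14.5 ± 3.29, 5.14 ± 0.672 and 6.56 ± 1.36 CPM in G1, S and G2M at 37 °C, with log2 fold changes against G1 of -1.49 ± 0.134 in S and -1.15 ± 0.128 in G2M (SE, edgeR adjusted p = 4.66e-16 and 2.82e-12). At 39 °C the corresponding changes of Sox9 were -1.32 ± 0.151 and -1.33 ± 0.221 (SE, edgeR adjusted p = 1.01e-11 and 8.48e-07). With each library scored by itself, the G2M change of Sox9 at 39 °C was -0.29 and did not pass (edgeR adjusted p = 0.0714). Under that scoring its contrasts differed between temperatures by 0.86 in S and 0.91 in G2M (edgeR interaction, adjusted p = 7.62e-04 and 2.61e-04). Neither difference passed with all libraries scored together (edgeR interaction, adjusted p = 0.740 and 0.806).

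Sox2 was higher in G2M than in G1 at both temperatures, by 0.36 ± 0.055 at 37 °C and 0.45 ± 0.079 at 39 °C on the log2 scale (SE, edgeR adjusted p = 4.83e-08 and 2.76e-06). With all libraries scored together Sox6 passed only at 39 °C, higher in S by 0.59 ± 0.190 and in G2M by 0.75 ± 0.267 (SE, edgeR adjusted p = 0.00988 and 0.0276), yet neither difference from its 37 °C contrast passed (adjusted p = 0.535 and 0.0638). Both Sox6 calls were lost without replicate 2 at 39 °C (adjusted p = 0.0693 and 0.133) or without replicate 3 there (0.0882 and 0.430). When each library was scored by itself, Sox6 passed in S at 37 °C as well (0.38, edgeR adjusted p = 0.0176). Its G2M change at 39 °C was then 0.17 and did not pass (edgeR adjusted p = 0.600). Sox5, with 12 UMIs in G2M at 37 °C, lost its call there without replicate 3 (adjusted p = 0.125). Over all genes 9.95% of S contrasts and 7.06% of G2M contrasts differed between temperatures; among the 7 members, Sox2 and Sox11 did so for S and Sox4 and Sox11 for G2M. The S contrast of Sox2 was larger at 39 °C by 0.30 ± 0.083 (SE, edgeR interaction, adjusted p = 0.0102), which was lost without replicate 3 at 37 °C (adjusted p = 0.0796) or replicate 1 at 39 °C (adjusted p = 0.181). The call of Sox2 in S at 39 °C was lost without replicate 1 or without replicate 3 there (adjusted p = 0.399 and 0.0904).

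**Figure D3:**
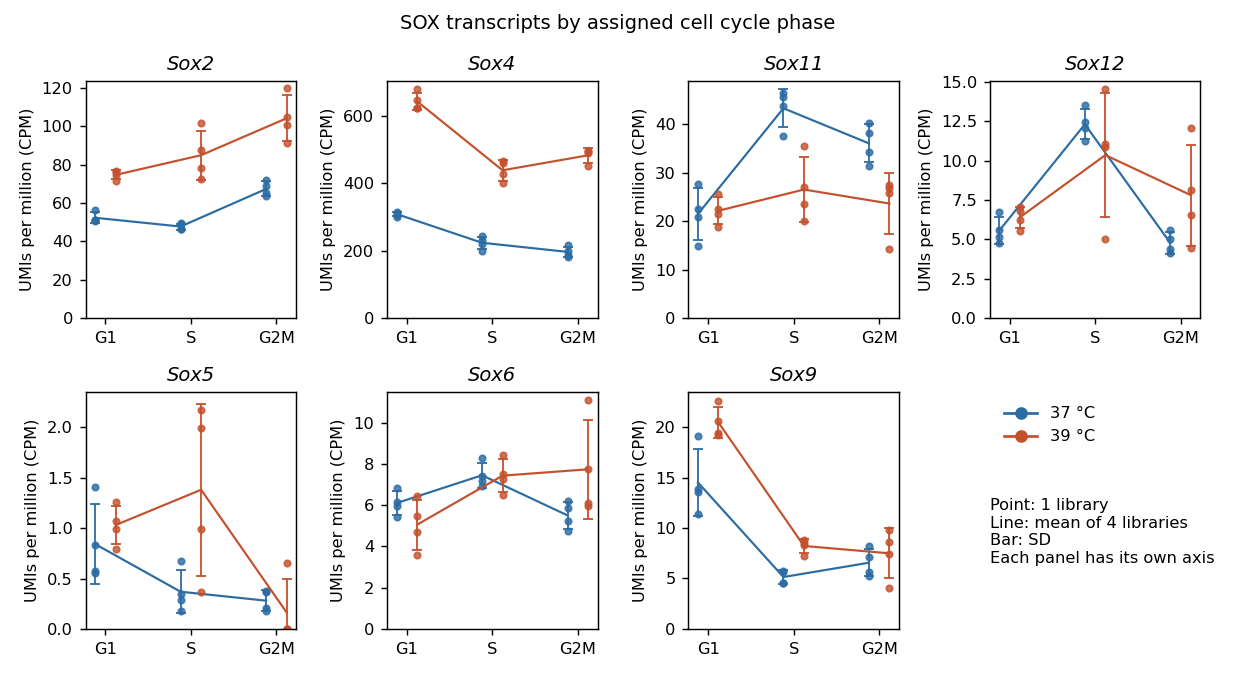
Level of each tested SOX gene in CPM (y axis from 0, a separate scale per panel) in cells assigned to G1, S and G2M at 37 °C (blue) and 39 °C (orange), with points for libraries, lines for means and bars for the SD of 4 libraries. Sox11 and Sox12 peak in S at 37 °C (43.3 and 12.3 CPM), and Sox4 and Sox9 are highest in G1.

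In single cells, depth was made equal by drawing 2000 UMIs from each cell, which left out 119 cells at 37 °C and 310 at 39 °C with fewer. Sox4 had a UMI in 33.4 ± 0.676% of cells at 37 °C and 60.6 ± 1.90% at 39 °C (SD, n = 4 libraries each), beside 77.7% and 89.1% without thinning. Cells with 5 or more Sox4 UMIs of 2000 were 0.419 ± 0.0351% at 37 °C and 4.60 ± 0.390% at 39 °C. The variance of Sox4 counts over their mean was 1.47 to 1.63 per library at 37 °C and 1.92 to 2.10 at 39 °C. Every library at 39 °C was above every library at 37 °C in this ratio, which also moves with the mean level of a gene. Without thinning, the highest Sox4 count in a single cell was 53, 44, 36 and 48 UMIs in the libraries at 37 °C. At 39 °C it was 105, 65, 230 and 51 UMIs, so the temperatures overlapped, and depth was not equal.

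Sox2 was found in 10.8 ± 0.741% of thinned cells at 37 °C and 14.5 ± 0.476% at 39 °C (44.1% and 47.5% unthinned). Sox11 was found in 5.14 ± 1.03% and 3.75 ± 0.228% (26.0% and 16.2% unthinned), and these libraries overlapped. Sox9 was found in 1.55 ± 0.476% and 3.40 ± 0.116% (7.47% and 14.1% unthinned), which did not overlap. Sox6 was found in 1.69% and 1.22% of thinned cells, Sox12 in 1.31% and 1.46% and Sox5 in 0.0703% and 0.151%, levels at which no order was read. No cell type that should lack these genes was sequenced alongside, so the share that free RNA gives was not measured.

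**Figure D4:**
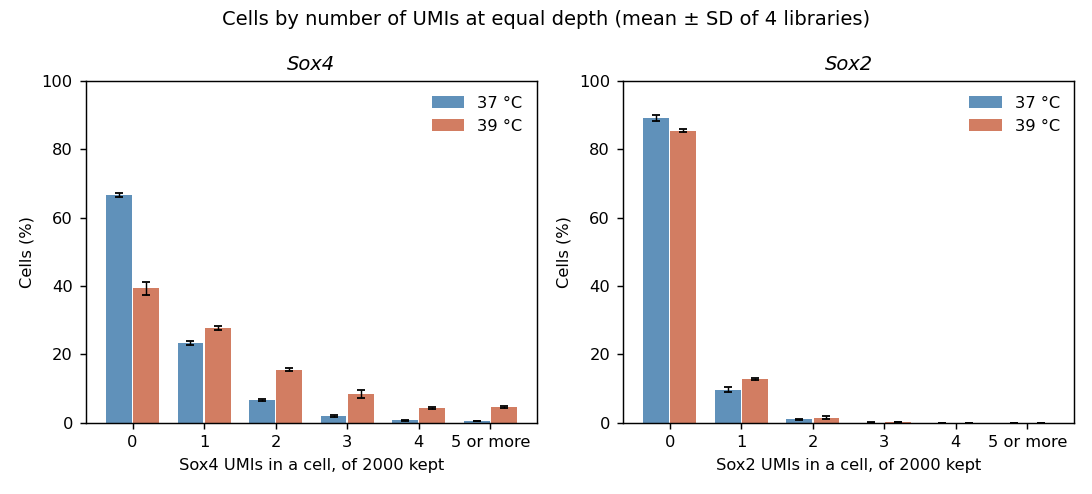
Percent of cells (y axis) by the number of Sox4 (left) and Sox2 (right) UMIs among 2000 drawn per cell (x axis), at 37 °C (blue) and 39 °C (orange); bars are means and whiskers the SD of 4 libraries. Cells with 0 Sox4 UMIs fall from 66.6% to 39.4%, and cells with 5 or more go from 0.419% to 4.60%.

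Pairs of members were then counted in the same cells. For this 5000 UMIs were drawn per cell and cells with fewer were left out, so the pairs describe the deeper cells. This kept 7882 of 8550 cells at 37 °C and 8133 of 9801 at 39 °C. Replicate 4 at 39 °C lost the most, 1009 of 3494 cells. Sox2 and Sox4 were both found in 1091 of 7882 cells at 37 °C, where independence within each library gives 1020, and in 2022 of 8133 cells at 39 °C, where it gives 1995. Sox4 and Sox11, which moved in opposite directions between the temperatures, were both found in 490 cells at 37 °C (548 by independence) and in 576 at 39 °C (599 by independence). Among pairs with at least 10 cells expected, the lowest ratio of observed to expected was that of Sox6 with Sox11, with 22 cells beside 31.4 at 37 °C and 11 beside 20.5 at 39 °C. The highest was that of Sox11 with Sox12 at 39 °C, with 38 cells beside 27.3. For Sox6 with Sox11 the libraries differed. At 39 °C replicates 2, 3 and 4 had 2 cells beside 5.68, 2 beside 5.79 and 7 beside 6.24. At 37 °C they went from 9 cells beside 9.62 (replicate 1) to 5 beside 10.3 (replicate 4). These are descriptions over cells of shared libraries and were not tested.

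Across cells, no gene followed Sox2 or Sox4 closely. Over 6398 genes, the largest Pearson correlations with Sox4 on log values (mean over 8 libraries) were those of Hmga2 (0.084), Ctxn1 (0.081) and Tubb2b (0.079), and with Sox2 those of Xist (0.065), Malat1 (0.064) and Anxa5 (0.059). Values of this size in sparse counts are not read as a relation.

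Among the 10 other SOX genes, Sox13, a SOXD gene, and Sox21, a SOXB2 gene, were higher at 39 °C in all cells. Sox13 was at 2.14 ± 0.202 and 5.28 ± 0.510 CPM (SD, n = 4 each; log2 fold change 1.31 ± 0.114 SE, edgeR adjusted p = 5.67e-09) and Sox21 at 1.69 ± 0.225 and 2.53 ± 0.306 CPM (0.58 ± 0.146 SE, edgeR adjusted p = 0.00185). Sox15 did not pass, and the other 7 had at most 1 UMI each. The only SOXB1 gene measured above that level was therefore Sox2, since Sox1 had 1 UMI and Sox3 had 0.

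Genes that act with or downstream of SOX factors were counted from lists. Over all genes tested in all cells the median log2 fold change was 0.02 and 62% passed, 31.5% higher and 30.5% lower, which is the background for each count below. Of the 21 SOXB1 and neural stem cell genes, 12 were tested, 8 were higher and 2 lower at 39 °C (median 0.48), so that 10 of 12 passed beside 62% of all genes. Nes, the intermediate filament of neural stem cells, was lower by -2.11 on the log2 scale and Notch1, a receptor that holds progenitors undifferentiated, was higher by 1.09; Hmga2, a chromatin protein of self-renewing progenitors, was higher by 2.09 and the growth factor receptor Egfr by 0.73. Of the 17 SOXC and immature neuron genes, 12 were tested, 2 were higher and 7 lower (median -0.38), 9 of 12 in all beside the same 62%. Tubb3 (-0.87), a neuronal tubulin that SOX4 and SOX11 are known to activate, was among the lower ones, with Stmn2 (-1.07) and Ezh2 (-1.50) and with Nrp1 (0.97) among the higher. In G1 cells 3 of 11 genes of this list were higher and 5 lower, with a median of -0.0033, where 24.8% of all genes were higher and 22.4% lower. Ezh2 (-0.57), Stmn2 (-1.23) and Nrp1 (0.72) kept their direction there. In G1 cells Tubb3 itself had means of 4.78 ± 1.33 (37 °C) and 6.19 ± 0.838 CPM (39 °C; SD, n = 4 each), a log2 difference of 0.37 in the other direction that did not pass (edgeR adjusted p = 0.0764).

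Of 17 cartilage genes linked to SOX9, SOX5 and SOX6, 16 were in the tables and 11 were tested, 6 were higher and 2 lower (median 0.20), 8 of 11 beside 62% of all genes. Col9a3, a cartilage collagen, was higher by 1.67 and Runx1 by 0.76, Trps1 by 0.36 and Runx2 by 0.20, while Acan, the main cartilage proteoglycan, had 0 UMIs. Trps1 and Runx2 did not pass in G1 cells, where Trps1 was at -0.11 and Runx2 at 0.054 (edgeR adjusted p = 0.152 and 0.520). The lower genes were the matrilins Matn3 (0.402 and 0.0679 CPM, log2 fold change -2.42, edgeR adjusted p = 6.77e-04) and Matn1 (0.620 and 0.244 CPM, -1.32, edgeR adjusted p = 0.00516), matrix proteins of cartilage, both below the level asked of named genes and named after their values were seen. Neither matrilin passed in G1 cells, with Matn3 at -1.64 and Matn1 at -0.48 (edgeR adjusted p = 0.221 and 0.598). Of the 11 cartilage genes tested in G1 cells, 3 were higher and 1 lower, where 24.8% of all genes were higher and 22.4% lower. Of 21 neural crest and glia genes linked to SOXE factors, 12 were tested, 5 were higher and 2 lower (median -0.05), 7 of 12 and so near the 62% of all genes. The lower ones were Pmp22 (-0.37) and Tfap2a (-0.25). In G1 cells 3 of 12 were higher and 1 lower, where 24.8% of all genes were higher and 22.4% lower. Tfap2a did not pass there (-0.15, edgeR adjusted p = 0.233). Olig1, Olig2 and Mog were at 0 UMIs, as Sox10 was. Of 18 partners and regulators of SOX proteins, 17 were tested, 9 were higher and 5 lower (median 0.16), 14 of 17 beside that 62%, with Nfia (1.25), which acts with SOX9 in glia, Maf (1.16), Tgfbr1 (1.00) and Smad3 (0.93) among the higher ones.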

How the data were processed

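Cells were sequenced with 10x Chromium 3′ chemistry. The deposited counts are UMIs per gene and cell, which the authors made with Cell Ranger 3.0.1 on mm10; strand use and annotation release are not given in the sources used here. All 8 libraries were used, grouped by the temperature in their labels. Cells over 15% mitochondrial UMIs, under 200 genes or over 6000 genes were removed, as the study did; doublets were not called. Phases came from Seurat 5.3.0 (CellCycleScoring, all libraries together). Counts were summed per library, or per library and phase, and genes averaging 1 or more counts over the sums were tested with edgeR 4.0.16 (R 4.3.3, TMM factors, quasi-likelihood), with Benjamini-Hochberg adjustment over all genes tested; each fit was tested on simulated data. SE is the log2 fold change over the root of F. To compare cells, 2000 UMIs were drawn from each (5000 for pairs of genes). Intervals and limits cover counting error only.

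The members, the gene lists and the tests were chosen with earlier results of these data known. Named list genes are up to 4 per list with the largest change among those with an adjusted p under 0.05 and 10 CPM in the higher group; genes named as at 0, Sox13 and Sox21 come with their lists. Gene positions come from GENCODE and promoters from RefSeq, both on GRCm38, which is mm10. No 2 libraries of a temperature agreed within sampling noise. Alternatives covered scaling (RLE, upper quartile, totals), the count filter, DESeq2 1.42.0, the replicate block, thinning to the smallest library, the cell limits, phase scoring and leaving out each library.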

Additional observations from a re-analysis of the deposited data

Results flagged for a closer look

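In 28 groups of 4 libraries (7 genes, 2 sets of cells, 2 temperatures), 2 held a library far from the other 3 by Dixon's test at 95%, and chance flags about 1 in 20. Sox5 in all cells at 39 °C was at 0.771 CPM in replicate 4, with the other libraries at 1.08 to 1.14 CPM. Sox2 in G1 cells at 37 °C was at 55.3 CPM in replicate 3, with the others at 49.5 to 50.3 CPM.

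In 4 cases the contrast between phases differed between temperatures by the interaction in edgeR (39 °C minus 37 °C, log2 scale). For S against G1 this was 0.30 for Sox2 (adjusted p = 0.0102) and -0.75 for Sox11 (adjusted p = 9.67e-06). For G2M against G1 it was 0.24 for Sox4 (adjusted p = 0.00124) and -0.59 for Sox11 (adjusted p = 0.0171). The G2M cells at 39 °C numbered 29 to 187 per library, and their part in these values was not tested.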

How the results depend on the processing

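Sox2, Sox4 and Sox11 kept their direction and an adjusted p under 0.05 between temperatures in all cells under each of 22 alternatives, with log2 fold changes of 0.41 to 0.81, 0.97 to 1.46 and -0.71 to -0.50. In G1 cells Sox2 (0.50 to 0.59), Sox4 (1.07 to 1.24) and Sox9 (0.44 to 0.79) did so under each of 17. In all cells Sox9 and Sox5 did so except in G2M cells alone, where Sox9 was at 0.32 and Sox5 at -0.32 (adjusted p = 0.424 and 0.901).

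Sox6 and Sox12, near the threshold, decided how many were lower at 39 °C. The count of 1 became 2 with RLE factors, with no filter on low counts, with no cell filter, with no upper limit on genes and with the replicate block, and 3 with up to 10% mitochondrial UMIs or at most 5000 genes per cell; leaving out single libraries gave 1 to 3, with 3 without replicate 1 at 37 °C and 2 without replicate 1 or 3 at 39 °C. In G2M cells only, chosen after seeing the data, 3 members passed beside 29.7% of all genes. Of these 3, 2 were higher, and Sox6 (0.57) and Sox12 (0.66) were above 0. In S cells only, 5974 genes passed (43.5% of those tested) and 312 were past the size limit, and in G2M cells 4101 (29.7%) and 271. From the lists, 1 other SOX gene, 5 cartilage and 3 crest and glia genes passed in S cells. In G2M cells 3 cartilage, 4 crest and glia and 8 partner genes passed. The numbers tested from each list in these cells were not counted, so these counts are not read against those shares.

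With each library scored by itself, G1 cells gave -0.065 for Sox11, -0.13 for Sox12 and 584 genes past the size limit (374 otherwise), and Sox11 in G1 cells ranged from -0.044 (without replicate 2 at 37 °C) to 0.21 when single libraries were left out. Under the same scoring, at 39 °C, Sox11 in S was at -0.064 and Sox4 in G2M at 0.0069 and Sox9 in G2M at -0.29 against G1, with 1 member past the threshold in G2M (1 higher, 0 lower). The differences of the contrasts in S then were 0.081 for Sox4 and 0.86 for Sox9 (edgeR adjusted p = 0.156 and 7.62e-04). In G2M they were 0.81 for Sox5 and 0.91 for Sox9 (edgeR adjusted p = 0.516 and 2.61e-04). Of the members, 2 were higher in the S difference and 4 passed in the G2M difference, 3 of them higher. With library totals only, 4 members were lower in S at 37 °C and 2 were higher in the G2M difference. The cause of these moves was not tested. Shares of all genes that passed in phase contrasts were counted in the main fit only, with 9.95% for the S difference and 7.06% for the G2M difference. Leaving out single libraries gave 2 to 4 members higher in S at 39 °C, 1 to 2 higher in G2M at 39 °C (Sox12 at -0.19 to 0.44), 1 to 2 passing in the S difference (0 to 1 higher; Sox9 at -0.054 to 0.26), and 1 to 3 passing in the G2M difference (1 to 2 higher, 0 to 1 lower).

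The share of cells with a Sox12 UMI, 0.149 percentage points higher at 39 °C at 2000 UMIs, was -0.0596 at 5000 and -2.39 without thinning, where depth differs between libraries. Whether replicate numbers pair the libraries was not settled. Same-numbered libraries had correlations of their deviations of -0.128, -0.120, -0.115 and 0.325 over 6397 genes. Libraries of different number had -0.381 to 0.346. Deviations were taken from the mean of each temperature, which makes such values balance around 0, so they cannot exclude a pairing. The replicate block changed only the Sox12 call (edgeR adjusted p = 0.0476) among the members. Depth limits Sox5, Sox6, Sox9 and Sox12 in phases, most of all in G2M at 39 °C, where they had 1, 37, 37 and 34 UMIs.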
